A study of Mus musculus with 4 samples.

Results

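Small leucine-rich proteoglycans are a family of secreted matrix proteins, and 10 of their genes were followed here in muscle progenitor cells of aged and young mice: Bgn, Dcn, Lum, Ogn, Aspn, Prelp, Fmod, Kera, Podn and Omd. They were chosen by name from 19505 genes with a symbol on a whole-transcript Affymetrix microarray, and each had 1 probe set. The cells were taken from muscle of C57Bl/6 mice by collagenase digestion and sorted by flow cytometry as positive for both CD29 (integrin beta 1) and ITGA7 (integrin alpha 7), a pair of surface proteins that enriches satellite cells, the stem cells of skeletal muscle. The aged group was 2 years old and the young group 5 weeks old, with 2 arrays each and the same strain, tissue and sort in both. The labels give neither treatment nor altered allele, and they do not say whether the arrays of a group came from separate animals, so p-values reflect no more than the spread among these 4 samples, which may be technical. Age here joins a growing mouse to an old one, with no adult age between them.

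Small leucine-rich proteoglycans consist of a core protein of tandem leucine-rich repeats, most of them carrying glycosaminoglycan chains or sulfated tyrosines. The core binds collagen and sets the width and spacing of its fibrils, while several members also hold growth factors such as TGF-beta or, when set free, act on cell surface receptors. In muscle they are made chiefly by fibroblasts, tendon cells and other cells of the connective tissue, and decorin is known there for binding myostatin.

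Levels are the deposited log2 values, and differences are aged minus young in the same log2 units. These units are not turned into folds, because the values reached 19.36, above what a plain scan usually allows. The arrays also held 5222 control probe sets for introns, whose median (6.76 and 6.68 on the aged arrays, 6.25 and 6.62 on the young) serves as a mark of background. Exon controls stood less far above intron controls in the aged arrays, where the area under the curve was 0.792 and 0.819, than in the young arrays, where it was 0.849 and 0.823. All 10 measured satellite cell markers lay above the intron median on all 4 arrays, and so did all 10 measured markers of fibro-adipogenic progenitors, which are fibroblast-like. Markers of more than 1 cell type were thus read in every sample, and fewer cells of a type and less RNA per cell cannot be told apart.

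Kera and Omd were read lower in aged than in young cells, and the other 8 genes differed by amounts close to their errors. Kera encodes keratocan, a keratan sulfate proteoglycan of cornea and tendon, and differed by -2.85 ± 0.44 (SE). Omd encodes osteomodulin, which binds bone mineral and cells, and differed by -1.84 ± 0.36 (SE). The remaining differences ran from -0.55 to 0.15, with a median of -0.26. No gene of the family passed the limma test after Benjamini-Hochberg adjustment over all 19572 probe sets, and neither did any other probe set (0%), the smallest adjusted p being 0.343; 1438 were at an unadjusted p under 0.05.

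At an unadjusted p under 0.05, 2 of the 10 genes were lower in aged cells, where 3.99% of all probe sets were. None of the 10 was higher at that threshold, where 3.36% of all probe sets were. Differences were negative for 8 of the 10, and for 50.2% of all probe sets. The family's median difference was -0.33, beside -0.0013 over all probe sets; without aged replicate 2 it was -0.16. Both aged arrays lay below both young arrays for 4 of the genes (Bgn, Lum, Kera and Omd), as they did for 18.4% of all probe sets, and for none of the 10 did they lie above, as they did for 18.2%. All 10 genes were read above the intron median of every array.

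**Figure D1:**
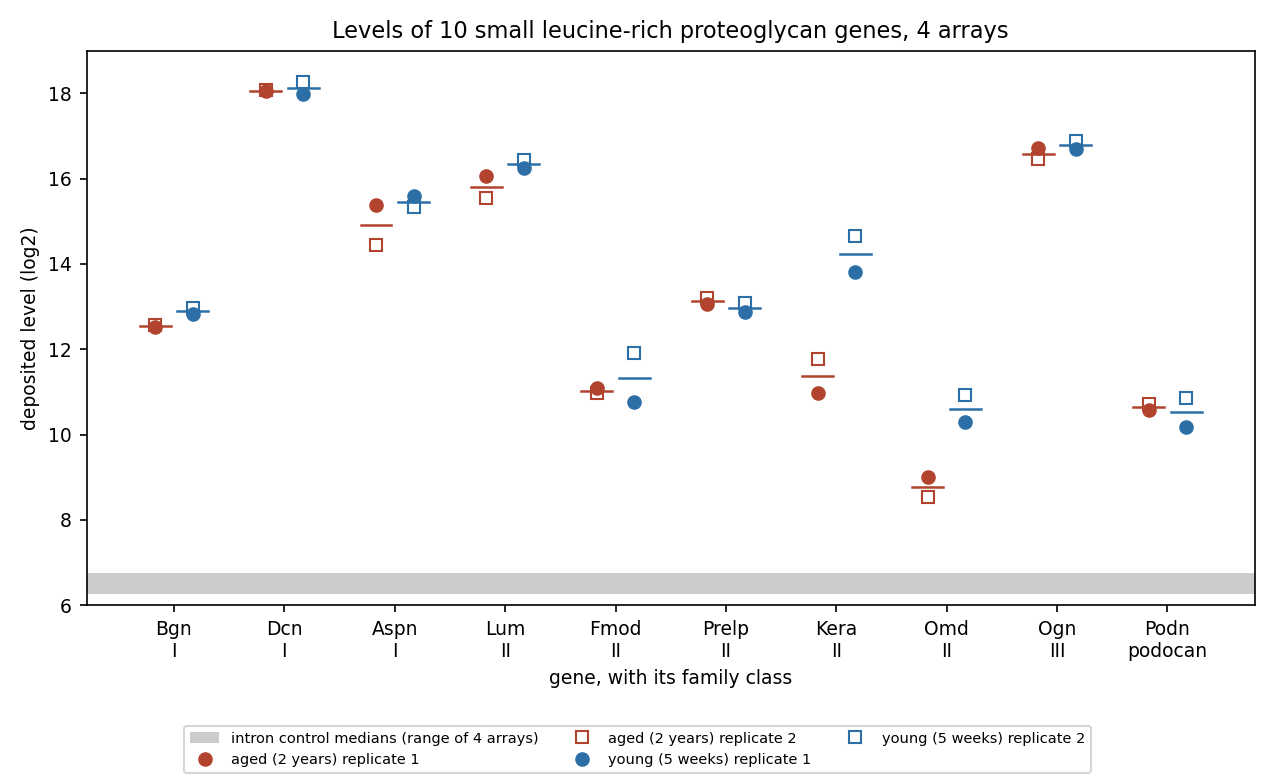
Deposited log2 level of each gene on each of the 4 arrays; filled circles are replicate 1, open squares replicate 2, short lines the group means, and the grey band the range of the intron control medians. The aged and young points are well apart for Kera and Omd and lie close together or overlap for the other genes.

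The class II members, most of which carry keratan sulfate chains or sulfated tyrosines, held both of these genes. Kera was read at 10.97 and 11.78 in the aged arrays and at 13.81 and 14.65 in the young arrays. The gap of 2.03 between the higher aged and the lower young reading was wider than the spread within either group, which was 0.81 and 0.84. The means were 11.38 ± 0.57 (SD, n = 2) and 14.23 ± 0.59 (SD, n = 2), and the 95% interval of the difference was -3.94 to -1.76 (limma, unadjusted p of 0.000743, adjusted p of 0.386). Only 8 of the 19572 probe sets had a more negative difference. In the young arrays 1.11% and 0.96% of the intron controls were read higher than Kera, and in the aged arrays 7.77% and 4.98% were.

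Omd was read at 8.99 and 8.54 in the aged arrays and at 10.29 and 10.92 in the young arrays. The groups were 1.29 apart, against spreads of 0.45 and 0.64 within them. The means were 8.77 ± 0.32 (SD, n = 2) and 10.60 ± 0.45 (SD, n = 2), with a 95% interval of the difference of -2.73 to -0.94 (limma, unadjusted p of 0.00253, adjusted p of 0.452), and 99 probe sets had a more negative difference. In the aged arrays Omd was not far above background: 20.4% and 24.1% of the intron controls were read higher there, against 7.28% and 7.18% in the young arrays. Background can make the size of a difference at such levels uncertain.

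Lum encodes lumican, a keratan sulfate proteoglycan that limits the width of collagen fibrils. Its levels were 16.07 and 15.54 on the aged and 16.26 and 16.44 on the young arrays. Both aged readings lay below both young ones by 0.19, less than the spread of 0.53 between the aged arrays, and the difference of -0.54 ± 0.33 (SE) had a 95% interval of -1.34 to 0.26 (limma adjusted p of 0.789). It was -0.28 when aged replicate 2 was left out and -0.81 when aged replicate 1 was. A difference as large as that of Omd lies outside this interval.

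Fmod encodes fibromodulin, which guides collagen cross-linking in tendon. It was read at 11.09 and 10.97 in the aged arrays and at 10.75 and 11.91 in the young arrays, so that the young arrays enclosed the aged ones. The difference was -0.31 ± 0.44 (SE), but 0.27 when young replicate 2 was left out and -0.89 when young replicate 1 was. Prelp encodes a heparin-binding member that anchors basement membranes to connective tissue. It was read at 13.06 and 13.20 in aged and at 12.88 and 13.08 in young arrays, with overlapping groups and a difference of 0.15 ± 0.29 (SE). Its 95% interval of -0.57 to 0.86 leaves out a shift of 1 log2 unit in either direction. That of Fmod, -1.40 to 0.79, leaves out such a shift upward but not downward (limma adjusted p of 0.948 for Prelp and 0.925 for Fmod).

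The class I members carry chondroitin or dermatan sulfate chains, except asporin, which has a run of aspartates in their place. Dcn, encoding decorin, was read at 18.05 and 18.08 in aged and at 17.98 and 18.26 in young arrays. The young readings enclosed the aged ones, and the difference of -0.05 ± 0.29 (SE; 95% interval -0.78 to 0.67) was the smallest in size among the 10 genes. Its readings lay near 19.36, the highest value of the table, and whether the signal is compressed at that level was not tested. Bgn, encoding biglycan, was read at 12.53 and 12.56 in aged and at 12.83 and 12.96 in young arrays. The groups were 0.27 apart, more than the spread of 0.03 and 0.13 within them, but the difference of -0.35 was close to its error of 0.28 (SE; 95% interval -1.05 to 0.35). Aspn, encoding asporin, an inhibitor of TGF-beta and BMP, was read at 15.39 and 14.44 in aged and at 15.59 and 15.33 in young arrays. Aged replicate 1 lay among the young readings and aged replicate 2 below them. The difference of -0.55 ± 0.40 (SE) became -0.08 when aged replicate 2 was left out and -1.02 when aged replicate 1 was. For these class I genes limma gave an adjusted p of 0.839 to 0.986.

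The remaining genes belong to other classes. Ogn encodes osteoglycin, also called mimecan, the class III member of the list. It was read at 16.71 and 16.46 in aged and at 16.70 and 16.89 in young arrays, which overlapped, and differed by -0.21 ± 0.30 (SE; 95% interval -0.94 to 0.52). With 1 array left out its difference ran from -0.33 to -0.08. Podn encodes podocan, a member with a longer array of repeats. It was read at 10.59 and 10.72 in aged cells, between the young readings of 10.19 and 10.85, and differed by 0.14 ± 0.34 (SE; 95% interval -0.71 to 0.98). The limma adjusted p was 0.924 and 0.962.

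**Figure D2:**
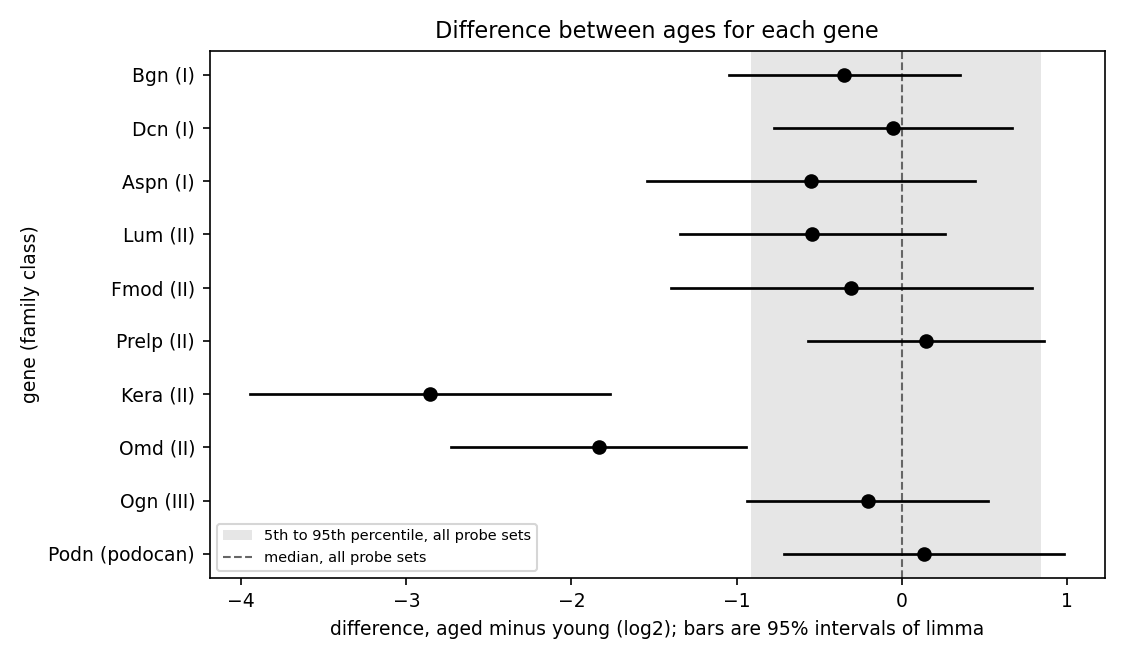
Difference between ages for each gene (aged minus young, log2), with 95% intervals from limma; the grey area spans the 5th to the 95th percentile of all probe sets, -0.91 to 0.84, and the dashed line is their median. Only the intervals of Kera and Omd lie wholly below 0.

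Many genes of this family stand side by side in the genome, and the differences varied in size along these clusters. In the RefSeq gene table of GRCm38.p6, Dcn, Lum, Kera and Epyc are consecutive protein-coding genes, and so are Ecm2, Aspn, Omd and Ogn, and Optc, Prelp and Fmod. In the first cluster the differences were -0.05 for Dcn, -0.54 for Lum, -2.85 for Kera and -1.15 ± 0.42 (SE) for Epyc, a class III member of cartilage. Epyc was read at 5.76 and 5.03 in aged and at 6.93 and 6.16 in young arrays (limma, unadjusted p of 0.0344, adjusted p of 0.640), below the intron median in both aged arrays and in 1 young array, so its size is uncertain. In the second cluster they were -0.50 ± 0.30 (SE) for Ecm2, a related leucine-rich matrix protein, -0.55 for Aspn, -1.84 for Omd and -0.21 for Ogn. In the third cluster they were 0.76 ± 0.50 (SE) for Optc, a class III member of the eye, 0.15 for Prelp and -0.31 for Fmod.

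The change between neighbours was compared within each array, as the log ratio of one gene to the next, for 7 neighbouring pairs. The ratio of Kera to Lum differed by -2.31 between aged and young cells, that of Omd to Aspn by -1.29 and that of Ogn to Omd by 1.63, and for each of these the aged arrays lay to one side of the young arrays. The ratio of Lum to Dcn differed by -0.49 and that of Epyc to Kera by 1.71, also without overlap, but Epyc was below the intron median in both aged arrays and 1 young array, so the size of the latter is uncertain. The ratios of Aspn to Ecm2 and of Prelp to Fmod overlapped, with differences of -0.05 and 0.45. All of the pairs without overlap except Lum to Dcn include Kera or Omd, and so repeat the differences of those genes. Among all single probe sets, the aged arrays lay below the young for 18.4% and above for 18.2%. The share among log ratios of other gene pairs was not counted, so the pairs have no like measure beside them. A two-sided exact permutation test of 2 arrays against 2 cannot go below 0.333, which was its p for each of the 5 pairs without overlap. Adjusted over the 7 pairs it was 0.467.

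**Figure D3:**
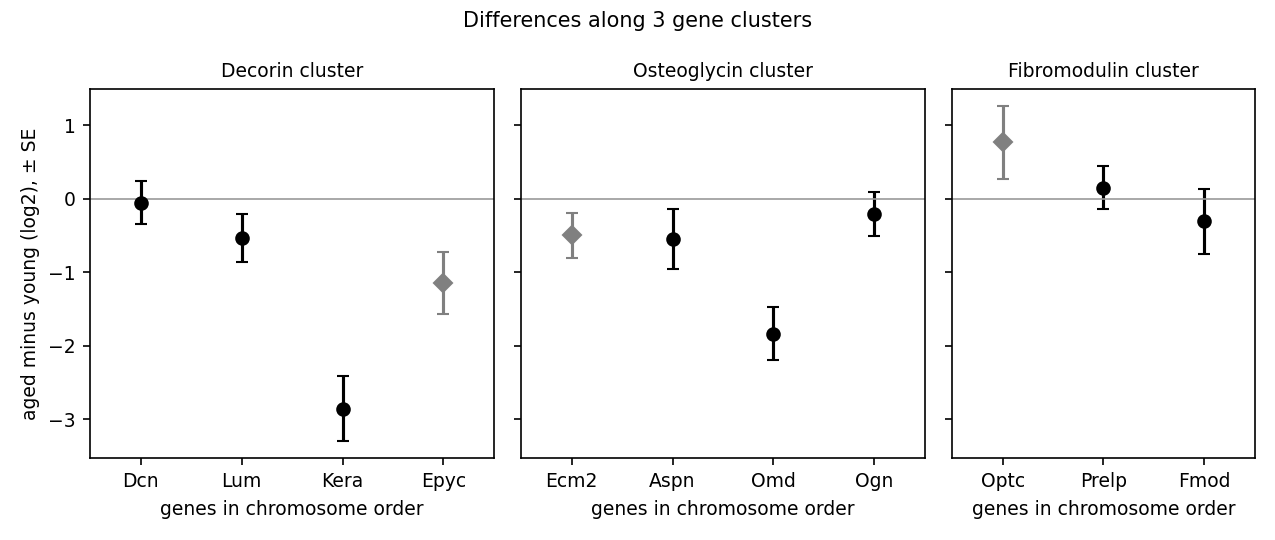
Difference between ages (aged minus young, log2, ± SE of limma) for neighbouring genes in chromosome order in 3 clusters; black circles are the genes followed here and grey diamonds their relatives Epyc, Ecm2 and Optc. Kera and Omd lie below the neighbours on both sides.

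The bases before the start of Kera and Omd are shown with those of Aspn and Ogn, the genes on either side of Omd whose differences were smaller. They are the 250 bases upstream of the RefSeq start in GRCm38.p6, all on the plus strand and written 5′ to 3′: chr10:97606955-97607204 for Kera, chr13:49582212-49582461 for Omd, chr13:49544193-49544442 for Aspn and chr13:49607765-49608014 for Ogn. Capitals mark CCAAT and the E-box CANNTG, each searched on both strands.
Kera: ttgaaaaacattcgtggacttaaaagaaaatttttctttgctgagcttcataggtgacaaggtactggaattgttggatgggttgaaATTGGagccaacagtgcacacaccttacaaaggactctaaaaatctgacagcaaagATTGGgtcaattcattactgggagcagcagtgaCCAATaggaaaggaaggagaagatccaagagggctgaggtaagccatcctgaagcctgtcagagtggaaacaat
Omd: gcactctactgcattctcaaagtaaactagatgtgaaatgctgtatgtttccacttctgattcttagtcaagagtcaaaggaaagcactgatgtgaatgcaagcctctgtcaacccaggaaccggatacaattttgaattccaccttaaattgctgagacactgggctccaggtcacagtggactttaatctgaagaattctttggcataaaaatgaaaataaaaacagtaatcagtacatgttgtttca
Aspn: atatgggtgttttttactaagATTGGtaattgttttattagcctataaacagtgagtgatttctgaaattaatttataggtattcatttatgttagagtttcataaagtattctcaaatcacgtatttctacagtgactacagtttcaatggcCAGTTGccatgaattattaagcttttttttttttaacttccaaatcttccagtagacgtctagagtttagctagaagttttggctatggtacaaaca
Ogn: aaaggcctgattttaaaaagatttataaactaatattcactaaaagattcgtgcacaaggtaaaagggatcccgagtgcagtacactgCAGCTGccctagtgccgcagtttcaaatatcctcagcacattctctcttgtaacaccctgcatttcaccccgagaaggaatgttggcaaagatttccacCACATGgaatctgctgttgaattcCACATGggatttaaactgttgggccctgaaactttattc

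Kera and Omd, the genes with the largest differences, did not share any of the motifs searched. The Kera window held CCAAT 3 times, starting 163, 107 and 74 bases before the start, while 33.8% of the 32851 RefSeq windows of this length held it at all and 2.79% at least 3 times. The Omd window held none of 6 motifs searched (the TATA box TATAAA, the CCAAT box, the GC box GGGCGG, the E-box CANNTG, the AP-1 motif TGANTCA and the Smad motif CAGAC, on both strands), as did 5.27% of all windows. The Aspn window held TATAAA 2 times and CCAAT and CANNTG once each. The Ogn window held CANNTG 3 times and 2 matches of TATAAA on opposite strands, which overlap in a single stretch. Over all windows, 12.4% held TATAAA, while 66.2% of all windows held CANNTG at all and 12.2% at least 3 times. No CCAAT overlapped a CANNTG in the windows shown. Windows were found for 8 of the 10 genes. GC content was 42.4% for Kera, 38.4% for Omd, 30.0% for Aspn and 42.0% for Ogn, all below the median of 52.4% over all windows, and it was 64.4% for Bgn. These matches describe the letters of the windows alone.

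Other parts of the proteoglycan pathway were counted from lists written with earlier results of these data known. Of all probe sets, 3.99% were lower and 3.36% higher at an unadjusted p under 0.05, the shares to set beside the counts of each list. The fibril partners of the family, collagens and other fibre proteins, had negative differences in 14 of 15 measured genes, with a median of -1.07, and 9 were lower at an unadjusted p under 0.05 (none higher, none past the adjusted threshold in limma). Col1a1, a chain of type I collagen, was read at 11.09 and 11.27 in aged and at 14.99 and 13.82 in young arrays and differed by -3.22 ± 0.45 (SE). Col1a2, the other chain of type I collagen, differed by -2.65 ± 0.46 and Col3a1, the type III chain, by -2.10 ± 0.49. With the separation of exon from intron controls as a covariate, 3 of the fibril genes were lower at that threshold, and with any 1 array left out 6 or 7 were.

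The enzymes that build the chains shifted little as groups. Among 25 measured genes of chondroitin and dermatan sulfate synthesis the median was -0.18. At an unadjusted p under 0.05, 1 gene was lower and 1 higher, near the shares over all probe sets (3.99% and 3.36%). The genes were Chsy3, a chondroitin synthase (-0.81 ± 0.29, SE), and Chst11, a chondroitin 4-sulfotransferase (1.03 ± 0.33, SE), the latter read below the intron median in both young arrays. Both counts were 0 when replicate 1 of either age was left out, and 3 without young replicate 2; without aged replicate 2 there were 0 lower and 1 higher. Keratan sulfate synthesis had 9 measured genes, a median of -0.03 and none at that threshold in limma. The 2 tyrosine sulfotransferase genes had a median of 0.25, and neither was at that threshold.

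Growth factors and receptors that members of the family bind were read on both sides of 0. The growth factor list had a median of 0.16 over 14 genes, with Igf1, the insulin-like growth factor, lower (-1.40 ± 0.30, SE) and Ccn4, a matricellular protein of Wnt signalling, higher (1.01 ± 0.37, SE; below the intron median in 1 young array) at an unadjusted p under 0.05; without aged replicate 2 none was higher, and without young replicate 2 there were 2. The receptor list had a median of 0.03 over 23 genes, with 2 lower and 3 higher. Beside both lists, 3.99% of all probe sets were lower and 3.36% higher at that threshold. Cd14, the coreceptor of the Toll-like receptors through which free biglycan acts, was read at 7.53 and 7.57 in aged and at 6.18 and 6.45 in young arrays (1.23 ± 0.29, SE), both young readings lying below the intron median. P2rx7, a purine receptor linked to biglycan signalling, differed by 0.89 ± 0.34, with both young arrays and 1 aged array below the intron median, and Bmpr1b, a BMP receptor, by -1.21 ± 0.41 but below the intron median on every array. With an array left out, the receptors lower and higher numbered 1 and 1 (aged replicate 1), 0 and 1 (aged replicate 2), 3 and 3 (young replicate 1) or 1 and 2 (young replicate 2), and their median was 0.37 without young replicate 1.

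Among 13 proteases and processing proteins that act on the family the median was 0.05, with 1 gene lower and 2 higher at an unadjusted p under 0.05 (3.99% and 3.36% of all probe sets). Mmp3, stromelysin 1, was read at 10.33 and 10.87 in aged and at 12.67 and 12.74 in young arrays (-2.11 ± 0.32, SE). Adamts5, an aggrecanase, was read at 13.06 and 12.69 in aged and at 11.94 and 11.28 in young arrays (1.26 ± 0.36, SE). The other gene on the higher side, Gzmb, encoding granzyme B of cytotoxic lymphocytes, was below the intron median on every array. None was higher without aged replicate 1 or without young replicate 2. Other proteoglycan cores and link proteins had a median of -0.20 over 22 genes, with 4 lower: Hapln1, the cartilage link protein (-1.58 ± 0.30, SE; below the intron median in both aged arrays), Agrn, encoding agrin (-0.98 ± 0.34), Gpc6, a glypican (-0.80 ± 0.30), and Hspg2, encoding perlecan (-0.79 ± 0.31), the last named after its value was seen. That count was 2 when aged replicate 1 or young replicate 1 was left out and 1 when aged replicate 2 was, which also turned the median to 0.08.

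**Figure D4:**
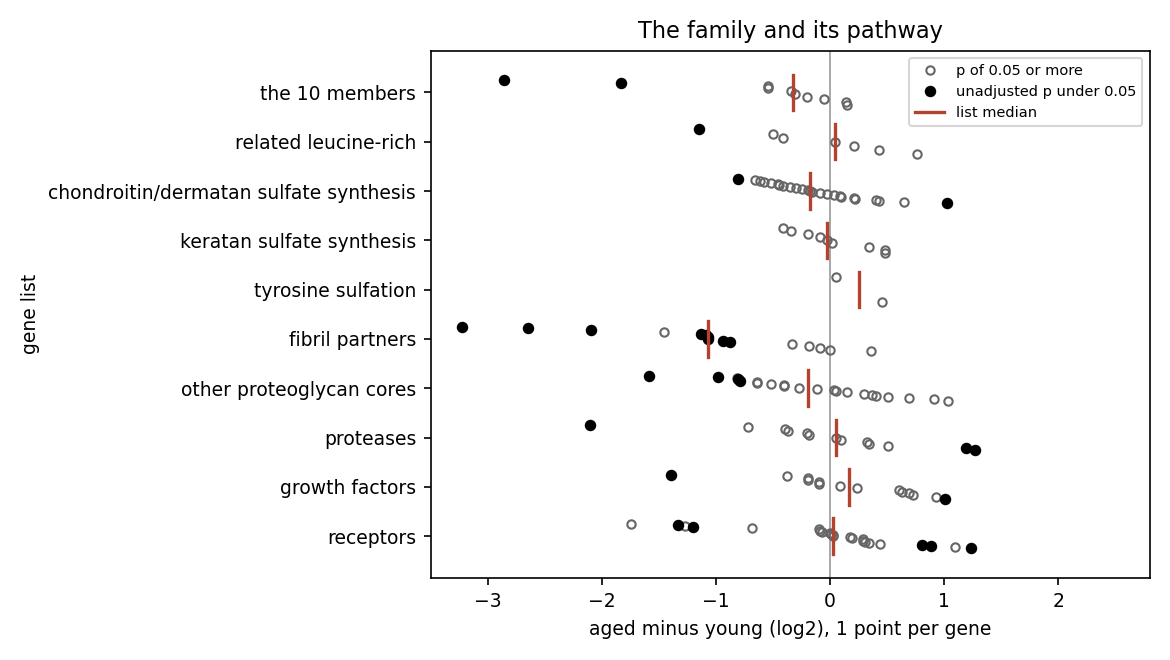
Difference between ages (aged minus young, log2) for each measured gene of the family and of 9 pathway lists; filled points are at an unadjusted p under 0.05 in limma and red lines are list medians. The fibril partners have the most negative median, -1.07, and the other lists lie closer to 0.

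Summed marker levels stood apart between the ages for some cell types and overlapped for others. The part of these cells in the results for Kera and Omd was not tested. Satellite cell markers (10 of 10 measured) summed to 121.0 to 124.3 in aged and 119.0 to 129.2 in young arrays. Their median difference was -0.15. It turned to 0.58 once young replicate 1 was dropped and to -0.70 once young replicate 2 was, and the covariate fit gave 0.87. Among them Myod1 was lower (-1.16 ± 0.43, SE) at an unadjusted p under 0.05 in limma. At that threshold 3.99% of all probe sets were lower and 3.36% higher, the shares to set beside the count of each marker list. Tendon markers, of which 9 of 9 were measured, had a summed log2 level of 89.1 to 89.9 in aged and 93.2 to 94.4 in young arrays. Their median difference was -0.22, or -0.62 without young replicate 2. Differences were negative for 6 and positive for 3 of them. At an unadjusted p under 0.05 in limma, 2 were lower, Tnmd, encoding tenomodulin (-2.06 ± 0.28, SE), and Cilp2 (-1.18 ± 0.31). The positive ones were Egr1 (0.39), Thbs4 (0.18) and Fbln7 (0.07). Scx and Mkx lay below the intron median in both aged arrays and 1 young array. Markers of fibro-adipogenic progenitors (10 of 12 measured) summed to 130.7 to 131.4 in aged and 129.9 to 135.7 in young arrays, with a median difference of -0.12, which was 0.12 without young replicate 2. Among them Pdgfrl was lower (-1.75 ± 0.37, SE) and Cxcl14 higher (1.32 ± 0.32) at an unadjusted p under 0.05 in limma. Genes of dividing cells (9 of 10 measured) had a median difference of -2.25 and sums of 63.3 to 70.6 in aged and 81.7 to 85.8 in young arrays. Only 6 of them lay above the intron median on every array. Bub1 and Nek2 lay below it in both aged arrays and Aurka in 1, so the size of their differences is uncertain. Markers of bone and cartilage cells summed to 41.2 to 41.9 and 39.8 to 41.6, and 5 of their 7 measured genes, Sp7, Bglap, Ibsp, Matn3 and Ucma, lay below the intron median on every array.

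Markers of blood cells stood on the other side. Granulocyte markers (9 of 9 measured) summed to 86.1 to 106.6 in aged and 53.6 to 60.4 in young arrays, with only Ltf below the intron median throughout. Lymphocyte and plasma cell markers (7 of 8) summed to 46.3 to 60.3 and 36.2 to 37.6, with Ms4a1 below the intron median throughout. None of these 7 was above it on every array, and Cd3d, Cd3e and Cd3g were above it in aged replicate 2 alone. The median difference of this list, 2.21, was 1.02 without aged replicate 2. Macrophage markers (10 of 11) summed to 64.7 to 73.1 and 58.0 to 61.9, but 5 of them, Aif1, Csf1r, Adgre1, C1qa and C1qb, lay below the intron median on every array. Myofibre genes (9 of 9) summed to 84.1 to 114.4 and 79.4 to 83.3, and their median difference of 1.45 was 0.06 without aged replicate 1. Endothelial markers (6 of 7) summed to 39.9 to 47.0 and 42.5 to 57.8, and their median difference of -1.24 was 0.11 without young replicate 2. Pericyte and smooth muscle markers (9 of 9) summed to 117.0 to 121.5 and 112.6 to 121.7, and Schwann cell markers (4 of 6) to 29.4 to 30.1 and 28.8 to 30.2. Of the endothelial and Schwann cell markers, Vwf, Mbp and S100b were below the intron median on every array.

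The genes whose profile over the 4 arrays lay closest to the family's median profile were Morf4l1, Zfp457, H2ac20, Resp18 and Abca13. Their root mean square distance from it was 0.02 to 0.03 log2 units, and their own differences were -0.27 to -0.24. Among these, Resp18 and Abca13 were read below the intron median on all 4 arrays and Zfp457 in both aged arrays.

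The differences of Kera and Omd kept their sign and an unadjusted p under 0.05 in limma under each of 11 other settings. Those of Kera ran from -3.27 to -2.44 and those of Omd from -2.47 to -1.52, and the other 8 genes reached an unadjusted p under 0.05 in none of the 11. The adjusted p of Kera was 0.207 to 0.950 over these settings and that of Omd 0.305 to 0.921. In 4 of the settings the difference of a gene with 1 probe set cannot move, and only its error does. In the 7 that can move it, the sign was also kept for Bgn, Lum, Ogn, Aspn and Prelp, but not for Dcn, Fmod and Podn.

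**Figure D5:**
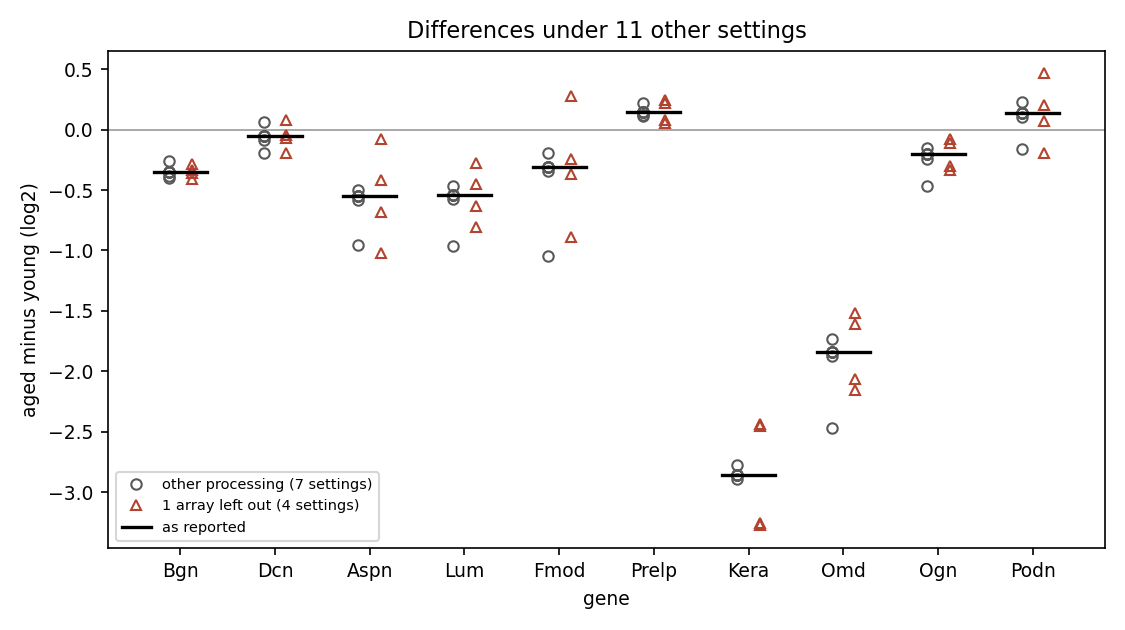
Difference between ages (aged minus young, log2) for each gene as reported (black line), under 7 other ways of processing (grey circles) and with 1 of the 4 arrays left out (red triangles). Kera and Omd lie below the other genes under every setting, and the points of Dcn, Fmod and Podn cross 0.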

How the data were processed

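The authors deposited log2 levels of 28846 probe sets on 4 arrays in 1 table, made with RMA and the Transcriptome Analysis Console per the submitters' processing notes; no version or genome build is given in the sources used here. Labelled cDNA came from 1 ng of RNA per array, per the labels' protocols. Names came from the platform annotation (19572 probe sets with 1 symbol). The ages were compared in R 4.3.3 with limma 3.58.1 (lmFit, eBayes, two-sided, group as the only term, no filter), adjusted by Benjamini-Hochberg over all 19572 probe sets at 0.05; the script was tested on simulated data. The number of arrays limits the precision. The family, lists and tests were chosen with earlier results of these data known, so the family gets no p of its own. All 10 members are named, and from each pathway list up to 3 genes with the smallest p under 0.05, with Hspg2 added after its value was seen. Genomic neighbours and the 5 genes closest in profile are named too. In the marker lists the rule was applied to satellite cells, fibro-adipogenic progenitors and tendon cells alone. For tendon cells the genes with positive differences and those below the intron median in some arrays were named as well, outside the rule. Genes of the other cell types and of dividing cells are not named under it. For list genes with several probe sets, the one with the highest mean was used. Promoter sequences are from RefSeq (GRCm38.p6). Same-numbered arrays did not deviate together (correlation -0.05 over probe sets), so numbers were not taken as pairs.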

Additional observations from a re-analysis of the deposited data

How the results depend on the processing

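The count of 2 family genes lower and 0 higher at an unadjusted p under 0.05 was the same under all 11 settings: median centring, a second quantile normalization, a trend in the variance prior, a filter on dim probe sets, the replicate block, a covariate for the separation of exon from intron controls, averaged probe sets and each array left out. The family's median difference was -0.71 with the covariate and -0.41 to -0.16 with 1 array left out. Dcn differed by 0.060 after the second quantile normalization and by -0.19 to 0.081 with 1 array left out, Fmod by -0.89 to 0.27 and Podn by -0.19 to 0.47 with 1 array left out, and Podn by -0.16 with the covariate. Of all probe sets, 868 were at an unadjusted p under 0.05 after the filter on dim probe sets, which tests fewer of them, against 1438. With the replicate block 2 probe sets passed the adjusted threshold, none of them in the family, and with 1 array left out 0 to 1 passed. The cause of these shifts was not tested. With 2 arrays per age, leaving 1 out takes the lone array to vary like the other group. The number of all probe sets at an unadjusted p under 0.05 also changed with the array left out. List counts from those fits therefore cannot be set beside the shares of the main fit. Signal near background limits Omd in aged cells and Epyc in both groups.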

Other observations

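Genes outside the family with the profiles closest to those of Kera and Omd were looked up after the values were seen. Closest to Kera, by root mean square distance over the 4 arrays (0.14 to 0.27 log2 units), were Mki67, the proliferation marker gene (-2.60 ± 0.48, SE), Bcat1, a transaminase of branched-chain amino acids (-2.65 ± 0.51), Prc1, a cytokinesis gene (-2.80 ± 0.46), Sncaip (-2.53 ± 0.47) and Ptprf, a receptor phosphatase (-2.48 ± 0.49). Sncaip lay below the intron median in aged replicate 1. Mki67 was read at 10.87 and 11.81 in aged and at 13.48 and 14.39 in young arrays, so that aged replicate 1 was the lowest and young replicate 2 the highest, as for Kera. Closest to Omd (0.15 to 0.19) were Meox1, a homeobox gene of the somite (-1.71 ± 0.32), Lasp1, an actin-binding protein (-1.69 ± 0.30), Fam180a (-1.95 ± 0.31), Dlg5 (-1.52 ± 0.34), below the intron median in both aged arrays, and the histone gene H3c1 (-1.62 ± 0.37), the last read below the intron median in both aged and both young arrays. Meox1 was read at 8.55 and 8.44 in aged and at 9.96 and 10.45 in young arrays. None of these 10 genes passed the adjusted threshold in limma (adjusted p of 0.412 to 0.473). With 4 arrays, closeness of profile says little beyond a like difference between the ages.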
